A study of Mus musculus with 4 samples.

Results

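The genes of glycolysis, of lactate production and export, and of the pentose phosphate pathway were described in T helper 17 (Th17) cells, enzyme step by enzyme step. The set held 36 genes, chosen by symbol from the 50600 genes counted, and all 36 were found. It covers the glucose transporters, every step between glucose and lactate, the lactate transporters with their chaperone, the regulators of phosphofructokinase, and the oxidative and non-oxidative branches of the pentose phosphate pathway. The rule that chose them names symbols and uses no measured value, but the genes were chosen with earlier results of these data known.

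The libraries came from 4 samples of Th17 primary cells of C57BL/6NJ mice, which the labels number as biological replicates 1 to 4 and describe as differentiated from CD4 T cells. The labels give 1 donor entry for all 4, with age and developmental stage unknown and sex not collected, and the header of each deposited table names a time of 24 hr. Total RNA-seq is the assay given in the labels, while the linked library protocol is named for poly(A)-selected RNA. No second group was analysed here, so no gene can be said to be higher or lower than in another cell type. Nothing in the labels says that the 4 samples came from separate cultures, so p-values speak for these samples only. How much of the spread between the samples is technical is not known. Replicates 1 and 2 also differed from replicates 3 and 4 in sex-linked RNA, which is given with the markers below.

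Glycolysis splits glucose into pyruvate in the cytosol, with a net yield of ATP and NADH, and lactate dehydrogenase then reduces pyruvate to lactate and returns NADH to NAD+. The pentose phosphate pathway branches off at glucose-6-phosphate. Its oxidative branch yields NADPH and its non-oxidative branch exchanges sugar phosphates between ribose and the glycolytic intermediates. Activated T cells, Th17 cells among them, are known for high rates of glucose uptake and lactate release, and most steps can be served by isozymes from separate genes that differ in tissue distribution and regulation.

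The promoter windows of gene pairs that differed widely in level at 1 step, Ldha and Ldhb for lactate dehydrogenase and Hk2 and Hk3 for hexokinase, are printed as sequence context, and were chosen after the levels were seen. They are from RefSeq on GRCm38.p6, the mm10 assembly, and run from 250 bases before to 50 bases after a transcript start, 5′ to 3′ on the gene's strand. Capitals mark ACGTG or its reverse complement CACGT, a form of the core of the hypoxia response element, with overlapping matches joined. The palindrome CACGTG, the E-box bound by Myc, always holds both. Ldha has a pair of windows, at chr7:46845554-46845853 and chr7:46846832-46847131 on the plus strand. Ldhb lies at chr6:142507908-142508207, Hk2 at chr6:82774405-82774704 and Hk3 at chr13:55021336-55021635, all on the minus strand.
Ldha first window: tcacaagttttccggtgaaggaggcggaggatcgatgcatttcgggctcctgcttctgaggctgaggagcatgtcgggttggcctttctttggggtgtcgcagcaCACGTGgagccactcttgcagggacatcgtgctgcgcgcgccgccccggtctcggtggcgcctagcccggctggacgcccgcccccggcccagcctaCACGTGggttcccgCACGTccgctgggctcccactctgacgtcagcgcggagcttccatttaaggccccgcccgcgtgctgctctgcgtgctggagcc
Ldha second window: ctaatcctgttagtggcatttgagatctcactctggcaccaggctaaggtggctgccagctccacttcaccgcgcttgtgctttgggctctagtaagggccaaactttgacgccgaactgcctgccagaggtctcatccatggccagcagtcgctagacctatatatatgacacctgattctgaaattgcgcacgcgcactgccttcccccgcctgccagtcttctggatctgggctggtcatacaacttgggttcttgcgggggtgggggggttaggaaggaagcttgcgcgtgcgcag
Ldhb: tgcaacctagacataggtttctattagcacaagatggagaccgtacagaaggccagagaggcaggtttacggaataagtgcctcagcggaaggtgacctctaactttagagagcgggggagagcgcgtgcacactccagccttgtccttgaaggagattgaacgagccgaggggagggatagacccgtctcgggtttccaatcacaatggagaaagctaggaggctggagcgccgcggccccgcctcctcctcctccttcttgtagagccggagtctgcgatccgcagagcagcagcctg
Hk2: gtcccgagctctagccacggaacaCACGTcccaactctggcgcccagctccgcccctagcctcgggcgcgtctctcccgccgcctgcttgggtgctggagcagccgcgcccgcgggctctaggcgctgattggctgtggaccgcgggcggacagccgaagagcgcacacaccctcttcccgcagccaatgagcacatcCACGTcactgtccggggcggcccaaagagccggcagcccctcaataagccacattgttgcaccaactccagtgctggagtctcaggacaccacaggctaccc
Hk3: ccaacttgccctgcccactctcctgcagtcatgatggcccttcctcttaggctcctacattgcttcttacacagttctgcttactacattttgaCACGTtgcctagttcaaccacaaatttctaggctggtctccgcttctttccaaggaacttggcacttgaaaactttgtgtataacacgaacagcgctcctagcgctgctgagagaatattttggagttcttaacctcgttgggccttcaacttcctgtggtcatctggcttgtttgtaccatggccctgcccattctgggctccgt

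The first Ldha window held 3 separate matches, 2 of them CACGTG, while the second Ldha window and the Ldhb window held 0. The end of the first Ldha window was found in no GENCODE M21 transcript of Ldha. The ends of the other printed windows were found in transcripts of their genes. Hk2 had 2 matches and Hk3 had 1, none of them CACGTG. Of the 36 genes, 34 matched the promoter table (Bsg and Slc2a3 did not), with 52 windows among them, and 17 of the 34 had ACGTG on either strand in at least 1 window. By gene this was 50%, against 21.8% of all 27025 genes in the promoter table. A gene with more windows has more chances of a match, and no share by gene was computed for genes above 1 TPM. CACGTG was in 5 of the 34 genes (14.7%), against 8.09% of all genes. By window, 40.4% of the 52 held ACGTG, against 19.6% of all 32851 windows in the table and 26.7% of the 10178 windows of protein-coding genes above 1 TPM. Windows of a gene can overlap, and the same Aldoa site was counted in overlapping windows. CACGTG was in 9.62% of the 52 windows, against 7.15% of all windows and 10.7% of the windows of genes above 1 TPM. The median GC content was 60.2% in the pathway's windows, 52.7% in all windows and 61.3% in windows of genes above 1 TPM. A match describes these letters in this window and no more.

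Levels are given in TPM, the usual length-normalised transcript share with the same total in every library, computed from the deposited counts and from the merged exons of a gene. The 36 genes together made up 1.41 ± 0.0283% of all TPM (SD, n = 4), within 1.38% to 1.43% in every library, and 1.67 ± 0.0302% of counts. Total counts ran from 19332509 in replicate 2 to 48558772 in replicate 4. The TPM worth of 3 counts per kb of exon was 0.206 in replicate 4 and 0.518 in replicate 2, limits that cover counting error only. In bulk RNA, fewer cells that express a gene and less RNA of it per cell cannot be told apart.

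The cell label was set beside markers that were chosen with earlier results of these data known, so they are no independent check of it. No markers of other T helper cells were listed. Among all protein-coding genes tested by edgeR, 45.9% lay above 1 TPM and 51.5% lay below it. All 6 Th17 genes listed (Il17a, Il17f, Il23r, Ccr6, Ahr and Rora) lay above 1 TPM, with a sum of 507 to 695 TPM per library, and the 6 T cell genes summed to 3808 to 3905 TPM. All listed markers of other cells, among them those known for Hk3, Pfkm, Eno3, Aldoc, Eno2 or Pfkfb1, were called below 1 TPM by edgeR. Their highest sum in any library was 0.164 TPM for 5 myeloid genes, 0.318 TPM for 4 erythroid genes, 0.247 TPM for 4 muscle genes, 0.0456 TPM for 4 neuron and glia genes, 0.214 TPM for 4 liver genes and 0.991 TPM for 4 B cell genes. Lyz2, Csf1r, S100a8 and S100a9 of the myeloid list, Snap25, Syt1 and Rbfox3 of the neural list, and Myh4 and Des of the muscle list had no count. The libraries differed in the X-inactivation RNA Xist, at 0.916, 1.01, 154 and 152 TPM in replicates 1 to 4, and in the Y-linked Ddx3y, at 77.8, 58.9, 0.240 and 0.0925 TPM, under 1 donor entry. Replicates 1 and 2 thus had the RNA pattern of male cells, and replicates 3 and 4 that of female cells. A single animal would not give both patterns, so the 1 donor entry cannot be read as 1 animal. Of the 36 genes, Pgk1, G6pdx and Pfkfb1 are on the X chromosome.

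Of the 36 genes, 34 lay above 1 TPM and 2, Hk3 and Aldoc, below it (edgeR quasi-likelihood F test of each gene's level against 1 TPM, two-sided, adjusted by Benjamini-Hochberg over 21764 protein-coding genes, threshold 0.05). Among all protein-coding genes tested, 45.9% lay above 1 TPM and 51.5% below. The set leaves out 20 other isozymes and related genes, described below, of which 7 lay above 1 TPM and 13 below. How many of a set lie above a level thus depends on which genes were listed. The pathway reached far beyond that line: 17 of the 36 exceeded 100 TPM, against 9.40% of protein-coding genes (2045), and 4 exceeded 1000 TPM, where 111 protein-coding genes stood in all. Those 4 were Ldha, Pkm, Gapdh and Aldoa, which ranked 15, 28, 56 and 94 among protein-coding genes by mean TPM. The median of the 36 mean levels was 96.5 TPM, against 14.4 TPM for the 14060 protein-coding genes with any count. Another 13 lay between 10 and 100 TPM and 4 between 1 and 10 TPM.

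**Figure D1:**
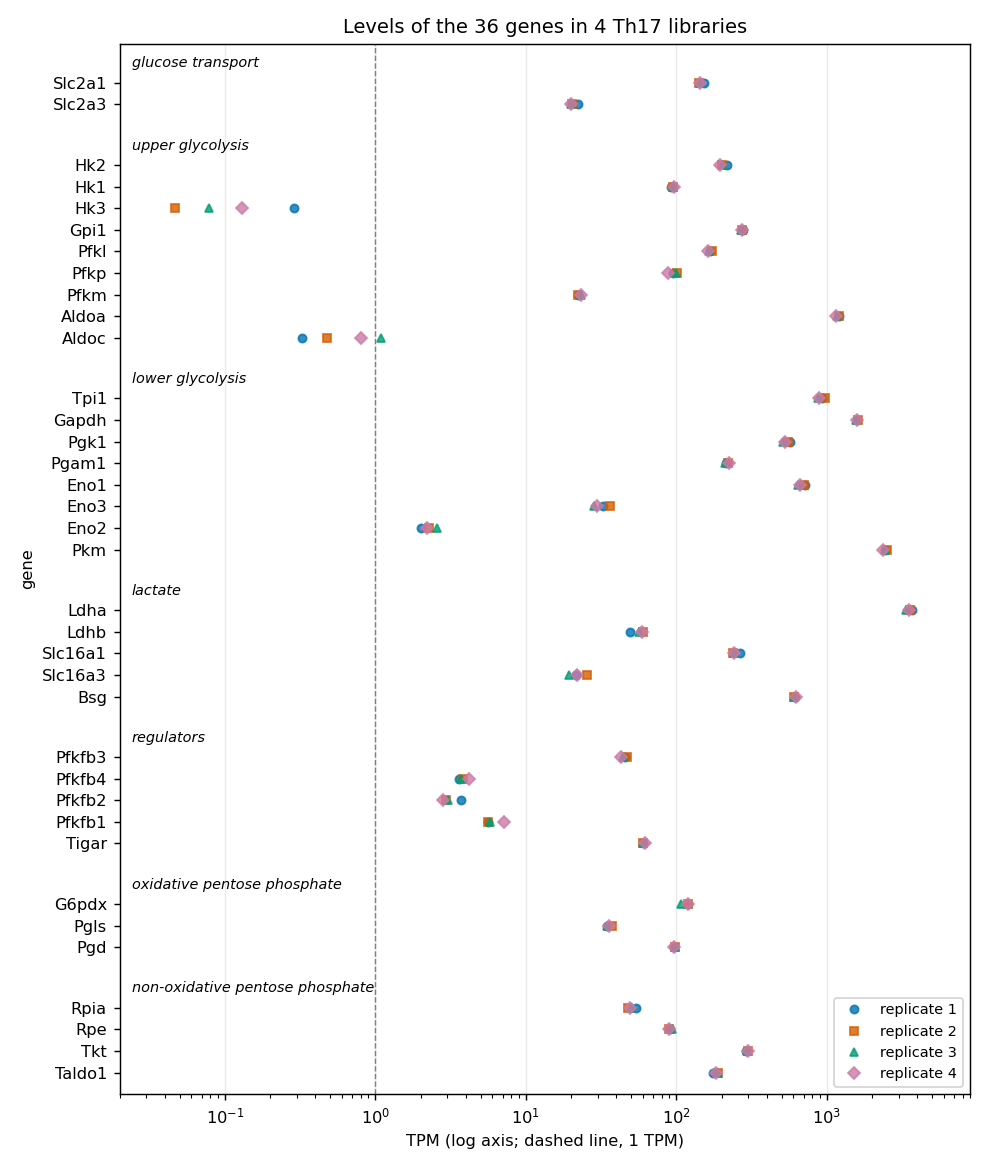
Level of each of the 36 genes in TPM (log axis) in the 4 Th17 libraries, 1 marker per replicate, grouped by role from glucose transport to the non-oxidative pentose phosphate branch, with a dashed line at 1 TPM. Ldha and Pkm stand farthest right, Hk3 and Aldoc are the genes left of or around the line, and the 4 markers of most genes overlap.

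Most glucose transporter transcripts came from Slc2a1, the gene of GLUT1, the transporter induced in activated lymphocytes (ENSMUSG00000028645, mm10 chromosome 4, 119108711 to 119137983, plus strand). Slc2a1 stood at 153, 141, 144 and 143 TPM in replicates 1 to 4, and Slc2a3, the gene of the high-affinity transporter GLUT3, at 22.1, 20.2, 19.9 and 19.8 TPM. The levels of the 2 genes did not overlap, and replicate 1 was the highest for both. Slc2a1 held 87.6 ± 0.249% of their summed TPM (SD, n = 4), and the difference was 2.77 ± 0.03 on the log2(TPM + 1) scale, a 7.09-fold ratio. That ratio was 4.17-fold when the longest protein-coding transcript took the place of the merged exons, because Slc2a3 has 7245 bases of merged exon and a longest protein-coding transcript of 3959 bases.

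The exact two-sided sign-flip permutation test over 4 libraries can go no lower than p = 0.125. All but 1 of the 19 isozyme pairs compared had the same sign in 4 of 4 libraries and this p, with an adjusted p of 0.132 over the 19 pairs, so none could pass 0.05. The differences are therefore given by their size and their spread between libraries. By CPM, with no length, 17 pairs kept 1 sign in all 4 libraries. Lengths matter to these comparisons: which transcripts the cells made was not tested, and gene counts do not show it.

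**Figure D2:**
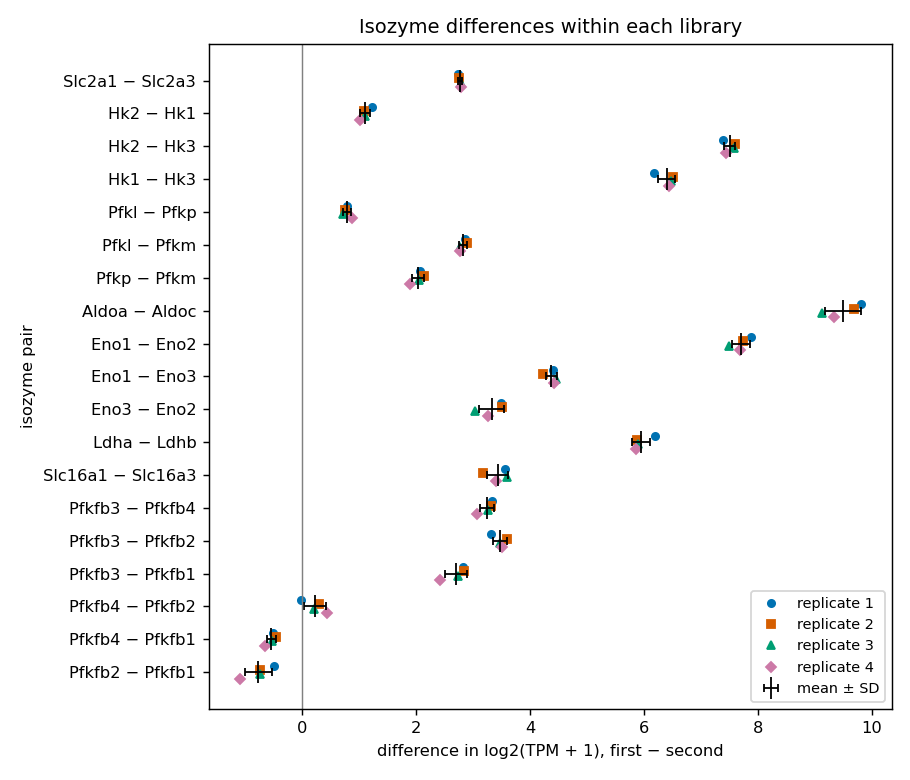
Difference in log2(TPM + 1) between the genes of each of 19 isozyme pairs, first minus second, with 1 marker per library and a bar at the mean ± SD of 4 libraries. With the merged exon lengths plotted here, Pfkfb4 minus Pfkfb2 has a library on the other side of 0 and the other 18 pairs have none, and Aldoa minus Aldoc has the largest mean difference.

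Hexokinase traps glucose in the cell as glucose-6-phosphate, and Hk2 was its leading gene (ENSMUSG00000000628, mm10 chromosome 6, 82725025 to 82774454, minus strand). Hk2, which codes for the inducible hexokinase of muscle, tumours and activated lymphocytes, stood at 216, 202, 205 and 196 TPM in replicates 1 to 4. Hk1, the gene of the widely expressed form, stood at 91.8, 95.0, 94.5 and 96.8 TPM. No library of Hk2 overlapped one of Hk1, and replicate 1 had both the highest Hk2 and the lowest Hk1. The difference, Hk2 minus Hk1, was 1.11 ± 0.09 on the log2(TPM + 1) scale (SD, n = 4) and the ratio 2.17-fold. With the longest protein-coding transcripts as lengths it was 1.18-fold, and Hk2 then held 54.0 ± 1.52% of hexokinase TPM and Hk1 45.9 ± 1.54%, against 68.4 ± 1.31% and 31.6 ± 1.34% with merged exons. Hk2 was still the higher of the pair in all 4 libraries, with ratios from 1.10 to 1.28.

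Hk3, which codes for a hexokinase known from myeloid cells, was close to undetected, at 0.290, 0.0469, 0.0783 and 0.131 TPM. These levels rest on 13, 1, 3 and 7 counts in replicates 1 to 4, and replicate 1 holds most of them. Its level lay below 1 TPM (edgeR adjusted p = 1.16e-07). Hk2 minus Hk3 was 7.50 ± 0.10 and Hk1 minus Hk3 6.40 ± 0.16 on the log2(TPM + 1) scale (SD, n = 4), and 9.86 and 8.75 with a pseudocount of 0.1.

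Glucose-6-phosphate isomerase, the branch point shared with the pentose phosphate pathway, comes from the gene Gpi1, at 275, 275, 269 and 273 TPM. Its coefficient of variation (CV, the SD as a percentage of the mean) was 1.03% over the 4 libraries.

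Phosphofructokinase commits fructose-6-phosphate to glycolysis, and its transcripts came from all 3 genes. Pfkl, the liver type (ENSMUSG00000020277, mm10 chromosome 10, 77986947 to 78010083, minus strand), stood at 167, 172, 165 and 163 TPM. Pfkp, the platelet type, followed at 95.7, 101, 99.5 and 88.3 TPM, and Pfkm, the muscle type, at 22.0, 22.3, 23.3 and 23.1 TPM. The 3 ranges did not overlap, in the order Pfkl, Pfkp, Pfkm. Pfkl minus Pfkp was 0.79 ± 0.06 on the log2(TPM + 1) scale (SD, n = 4), Pfkl minus Pfkm 2.82 ± 0.06 and Pfkp minus Pfkm 2.04 ± 0.10. Pfkl held 58.4 ± 0.853% of the summed TPM, Pfkp 33.7 ± 1.05% and Pfkm 7.96 ± 0.384%.

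With the longest protein-coding transcripts the shares were 55.3 ± 0.988%, 40.4 ± 1.12% and 4.33 ± 0.224%, for the same 3 genes in that order. The Pfkl to Pfkp ratio was 1.73-fold with merged exons, 1.37-fold with the longest protein-coding transcripts and 2.87-fold with the longest annotated transcripts. Pfkm shares 8.83% of its 50-base words with an overlapping gene on the same strand, so some of its reads may have been left uncounted.

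Aldolase, which splits fructose-1,6-bisphosphate, drew its transcripts almost entirely from Aldoa (ENSMUSG00000030695, mm10 chromosome 7, 126795234 to 126809108, minus strand). Aldoa, known as the muscle form and expressed widely, stood at 1196, 1211, 1171 and 1158 TPM, and Aldoc, known as the brain form, at 0.327, 0.477, 1.09 and 0.800 TPM. Aldoa made up 99.9% of their summed TPM. The Aldoc values rest on 13, 9, 37 and 38 counts, and replicate 3 alone exceeded 1 TPM, with replicate 4 the next highest. Aldoc was called below 1 TPM by edgeR (adjusted p = 0.0300), but not by DESeq2 (adjusted p = 0.0862) or limma (adjusted p = 0.117), and edgeR no longer called it without replicate 1 (adjusted p = 0.258) or replicate 2 (adjusted p = 0.0836).

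**Figure D3:**
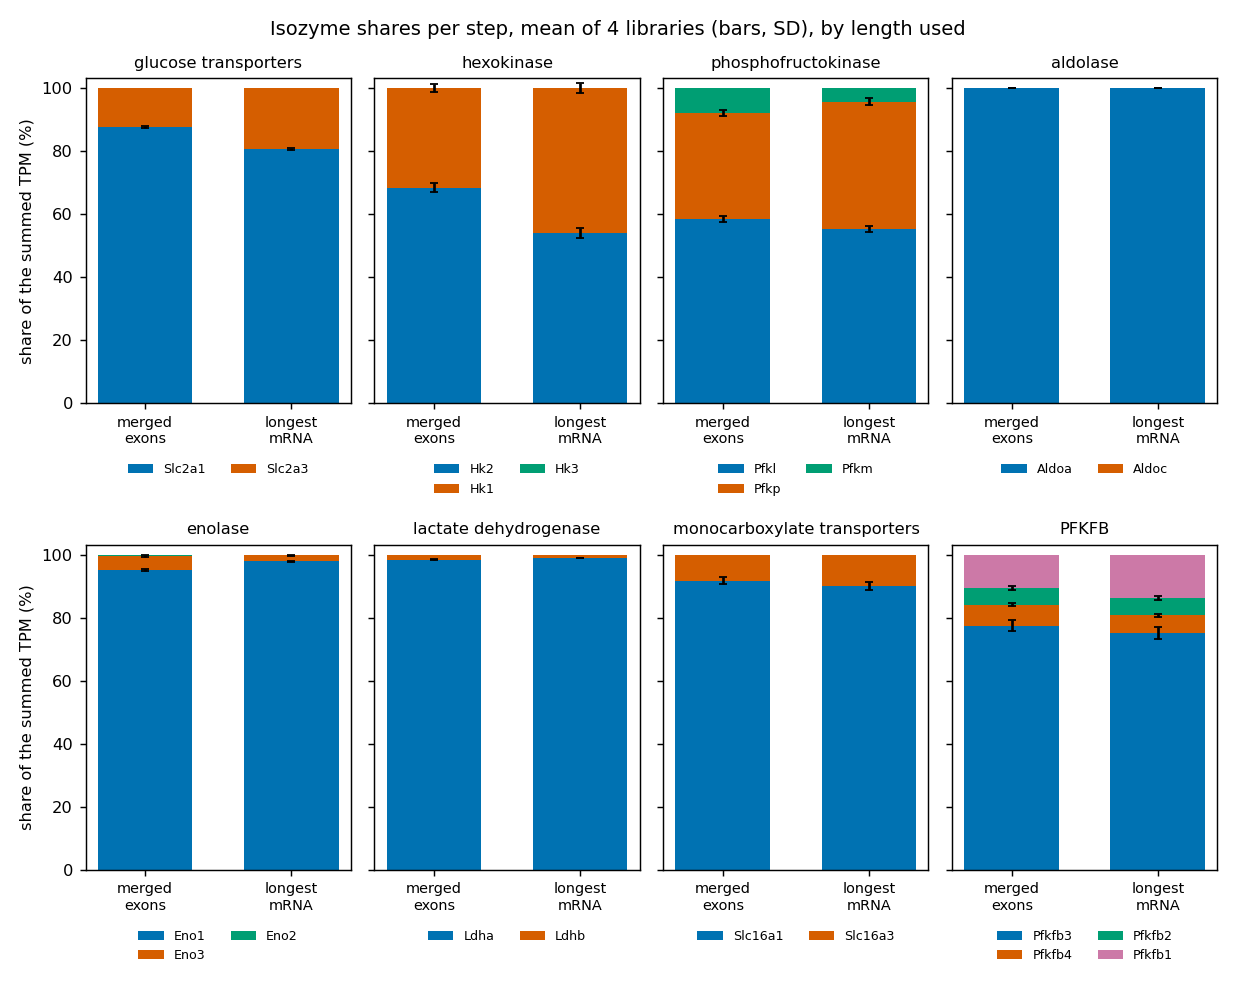
Share of the summed TPM of a step held by each of its isozyme genes, as stacked bars of the mean of 4 libraries with the SD, for merged exon lengths (left bar of each panel) and for the longest protein-coding transcripts (right bar). Hk2 and Hk1 lie closest to even shares with the longest protein-coding transcripts, while Aldoa, Ldha and Eno1 fill over 95% of their step with either length.

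Summed over genes, the later part of glycolysis carried more transcript than the earlier part, though not at every step. With merged exons, GAPDH and pyruvate kinase exceeded every earlier step. Aldolase, at 1185 TPM, exceeded triosephosphate isomerase, enolase and phosphoglycerate kinase. Phosphoglycerate mutase, at 217 TPM, lay below hexokinase, glucose-6-phosphate isomerase, phosphofructokinase and aldolase. The 8 genes listed between triose phosphate and pyruvate summed to 6402 ± 148 TPM (SD, n = 4), against 2043 ± 36.03 TPM for the 9 genes between glucose and triose phosphate, a ratio of 3.13 ± 0.0289 that lay between 3.10 and 3.17 in every library. This ratio was 2.65 with the longest annotated transcripts and 3.13 with the longest protein-coding transcripts. Shared sequence, described with the step order, also bears on this ratio, which was 8.82 with unshared words as lengths. Tpi1, the gene of triosephosphate isomerase, stood at 934, 969.7, 878 and 887 TPM. Gapdh, the NADH-yielding step (ENSMUSG00000057666, mm10 chromosome 6, 125161715 to 125166467, minus strand), stood at 1586, 1603, 1573 and 1583 TPM and had the lowest CV of the 36 genes, at 0.786%. Replicate 2 was the highest for both genes and replicate 3 the lowest.

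The kinase step that first yields ATP rests on Pgk1, on the X chromosome, at 572, 556, 509 and 524 TPM. Pgam1, which moves the phosphate group of phosphoglycerate, stood at 213, 219.7, 212 and 224 TPM. Replicates 3 and 4 were the lowest for Pgk1, and replicate 4 was the highest for Pgam1.

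Enolase came almost entirely from Eno1 (ENSMUSG00000063524, mm10 chromosome 4, 150236721 to 150248879, plus strand), the widely expressed form, at 711, 700.3, 643 and 661 TPM. Eno3, the muscle form, stood at 32.8, 36.3, 28.3 and 29.9 TPM, and Eno2, the neuronal form, at 2.01, 2.28, 2.55 and 2.22 TPM. All 3 genes lay above 1 TPM in every library, and their ranges did not overlap. Eno1 held 95.2 ± 0.297% of the summed TPM (SD, n = 4), Eno3 4.46 ± 0.312% and Eno2 0.319 ± 0.0455%. The share of Eno3 was 1.92% with the longest protein-coding transcripts and 0.546% with their unshared words, and that of Eno2 0.208% and 0.0585%. Eno2 was called above 1 TPM (edgeR adjusted p = 3.22e-25) but not above 2 TPM (adjusted p = 0.128). Eno3 minus Eno2 was 3.33 ± 0.22 on the log2(TPM + 1) scale, 14.2-fold with merged exons and 9.39-fold with the longest protein-coding transcripts.

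Pyruvate kinase, the last ATP-yielding step, comes from Pkm in these cells (ENSMUSG00000032294, mm10 chromosome 9, 59656368 to 59679375, plus strand), at 2417, 2493, 2434 and 2368 TPM. Pkm codes for the PKM1 and PKM2 forms by alternative splicing of a pair of exons, and counts per gene cannot tell the 2 forms apart. Replicate 2 was the highest and replicate 4 the lowest, with a CV of 2.12%. Pkm shares 12.1% of its words with an overlapping gene on the same strand. Pklr, the liver and red cell pyruvate kinase gene, had no count in any library. Had it 3 counts in all, its level would be 0.0216 TPM.

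Lactate dehydrogenase had the highest summed level of the 23 steps, nearly all of it Ldha (ENSMUSG00000063229, mm10 chromosome 7, 46841475 to 46855627, plus strand). Ldha codes for the subunit associated with reduction of pyruvate to lactate, and it stood at 3656, 3564, 3380.2 and 3494 TPM, as the highest of the 36 genes in every library. Ldhb, which codes for the heart-type subunit associated with lactate use, stood at 49.2, 59.7, 56.1 and 59.4 TPM (ENSMUSG00000030246, mm10 chromosome 6, 142490249 to 142507957, minus strand). Replicate 1 had the highest Ldha and the lowest Ldhb, and the other 3 libraries lay close together in Ldhb. Ldha held 98.4 ± 0.162% of the summed TPM (SD, n = 4). Ldha minus Ldhb was 5.95 ± 0.16 on the log2(TPM + 1) scale, 63.3-fold with merged exons and 95.8-fold with the longest protein-coding transcripts.

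Lactate leaves the cell through monocarboxylate transporters, of which Slc16a1, the gene of MCT1, was the main one (ENSMUSG00000032902, mm10 chromosome 3, 104638668 to 104658462, plus strand). Slc16a1 stood at 264, 239, 243 and 242 TPM and Slc16a3, the gene of MCT4, a form known for lactate export from glycolytic muscle, at 21.5, 25.6, 19.2 and 22.0 TPM. Replicate 1 was the highest for Slc16a1, and the 2 genes did not overlap. Slc16a1 held 91.8 ± 1.06% of the summed TPM (SD, n = 4) and exceeded Slc16a3 by 3.43 ± 0.19 on the log2(TPM + 1) scale, an 11.3-fold ratio. Bsg, the gene of basigin, the chaperone that brings both transporters to the cell surface, stood at 613, 609, 607 and 624 TPM, above the sum of the 2 transporter genes in all 4 libraries. Replicate 4 was the highest for Bsg.

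The bifunctional PFKFB enzymes make and break fructose-2,6-bisphosphate, the activator of phosphofructokinase. Pfkfb3, known for its high kinase to phosphatase ratio (ENSMUSG00000026773, mm10 chromosome 2, 11471433 to 11554077, minus strand), stood at 45.7, 46.8, 44.1 and 42.8 TPM and held 77.5 ± 1.67% of the family's TPM (SD, n = 4). Pfkfb4 stood at 3.62, 3.83, 3.69 and 4.20 TPM, Pfkfb2, the heart form, at 3.69, 2.95, 3.06 and 2.82 TPM, and Pfkfb1, the liver form, at 5.62, 5.63, 5.77 and 7.13 TPM. Pfkfb3 was the highest of the family in every library and Pfkfb1 the next with merged exons, with replicate 4 the highest for Pfkfb1 and Pfkfb4.

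Pfkfb3 minus Pfkfb4 was 3.25 ± 0.12 on the log2(TPM + 1) scale, Pfkfb3 minus Pfkfb2 3.48 ± 0.12 and Pfkfb3 minus Pfkfb1 2.71 ± 0.19. Pfkfb4 minus Pfkfb1 was -0.54 ± 0.08 and Pfkfb2 minus Pfkfb1 -0.77 ± 0.24, with Pfkfb1 higher in 4 of 4 libraries. The Pfkfb2 to Pfkfb1 ratio was 0.527 with merged exons and 0.951 by CPM, with no length, where it ran from 0.715 to 1.19 and replicate 1 had more of Pfkfb2. Pfkfb4 minus Pfkfb2 was 0.23 ± 0.19, with Pfkfb4 higher in 3 of 4 libraries (exact two-sided sign-flip permutation p = 0.25), and -0.24 by CPM. Pfkfb2 shares 15.9% of its words with an overlapping gene on the same strand. Tigar, a phosphatase that lowers fructose-2,6-bisphosphate, stood at 60.4, 60.0, 60.2 and 61.8 TPM. It exceeded the sum of the 4 PFKFB genes, 57.8 ± 1.29 TPM (SD, n = 4), in every library. With the longest protein-coding transcripts the order turned, to 48.0 ± 0.641 TPM for Tigar and 74.4 TPM for the 4 PFKFB genes. The length of Tigar hardly changed, from 3658 to 3651 bases, and its lower level came from the changed total used for scaling.

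The oxidative pentose phosphate branch, which yields NADPH, summed to 249 ± 6.26 TPM over its 3 genes (SD, n = 4). G6pdx, the gene of its first and rate-limiting enzyme (ENSMUSG00000031400, mm10 chromosome X, 74409483 to 74429194, minus strand), stood at 119, 119.7, 108 and 119.6 TPM. Replicate 3 was the lowest, and the other 3 libraries lay within 1 TPM of each other. Pgls, the lactonase, stood at 34.5, 37.4, 34.4 and 35.7 TPM and Pgd, the second NADPH-yielding dehydrogenase, at 95.9, 97.5, 97.9 and 96.0 TPM. Pgls was the lowest of the 23 steps with merged exons, at 35.5 ± 1.42 TPM, but stood at 99.7 ± 3.99 TPM with its longest protein-coding transcript, which has 1062 bases against 3770 bases of merged exon. Pgd likewise stood at 96.8 ± 1.03 TPM with merged exons and at 223 ± 2.41 TPM with that transcript. Pgls shares 18.9% of its words with an overlapping gene on the same strand.

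The non-oxidative branch summed to 620.3 ± 8.99 TPM over its 4 genes, 2.49 ± 0.0869 times the oxidative branch, from 2.43 to 2.62 in the 4 libraries. That ratio was 3.00 with the longest annotated transcripts and 2.11 with the longest protein-coding transcripts. Transketolase, which moves carbon between sugar phosphates, led the branch: Tkt (ENSMUSG00000021957, mm10 chromosome 14, 30548359 to 30574722, plus strand) stood at 288, 299, 297 and 299 TPM. Taldo1, the gene of transaldolase, stood at 176, 188, 188 and 182 TPM. Rpe, the epimerase gene, stood at 90.2, 89.6, 93.8 and 89.6 TPM and Rpia, the ribose-5-phosphate isomerase gene, at 53.6, 47.6, 50.3 and 49.1 TPM. Replicate 1 was the lowest for Tkt and Taldo1 and the highest for Rpia, and replicate 3 was the highest for Rpe. Rpia stood at 50.2 ± 2.56 TPM with merged exons and at 116 ± 5.90 TPM with its longest protein-coding transcript.

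Across the 23 steps, the order of the summed levels was lactate dehydrogenase at 3580 ± 114 TPM (SD, n = 4), pyruvate kinase at 2428 ± 51.6 TPM, GAPDH at 1586 ± 12.5 TPM and aldolase at 1185 ± 23.8 TPM. They were followed by triosephosphate isomerase at 917 ± 42.8 TPM, enolase at 713 ± 35.2 TPM, basigin at 613 ± 7.87 TPM and phosphoglycerate kinase at 540.4 ± 28.7 TPM. With merged exons, each of these 8 steps had a range over 4 libraries that lay clear of the next. Triosephosphate isomerase and enolase changed places with the longest protein-coding transcripts, at 1243 and 1456 TPM, and GAPDH and aldolase with the longest annotated transcripts, at 1576 and 2275 TPM. Hexokinase, transketolase, phosphofructokinase, glucose-6-phosphate isomerase and the monocarboxylate transporters followed between 299.5 and 269 TPM, and the ranges of neighbours in this order overlapped. Within libraries, hexokinase exceeded transketolase in 2 of 4, transketolase exceeded phosphofructokinase in 4 of 4, phosphofructokinase exceeded the isomerase in 4 of 4, and the isomerase exceeded the monocarboxylate transporters in 3 of 4. Hexokinase was the lowest of the first 4 with the longest protein-coding transcripts, at 325 TPM. Phosphoglycerate mutase at 217 TPM, transaldolase at 184 TPM and the glucose transporters at 166 TPM came next. The remaining 7 steps, from glucose-6-phosphate dehydrogenase at 117 TPM to 6-phosphogluconolactonase at 35.5 TPM, held 5 of the 7 pentose phosphate enzymes along with Tigar and PFKFB.

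Reads that could come from a copy of a gene were not counted, and several of these genes have processed pseudogenes, so their levels are uncertain. Of the words of 50 bases in the longest protein-coding transcript, 82.5% of those of Gapdh occur in another annotated gene elsewhere in the genome, 72.2% of those of Eno1, 68.0% of those of Pgk1, 41.5% of those of Pgam1, 30.5% of those of Pkm and 27.0% of those of Ldhb. The other 30 genes shared under 25%, and 21 shared none. Gapdh had 52 such copies, each holding at least 5% of its words. With the unshared words as the length, GAPDH had the highest level of the 23 steps at 21604 TPM, enolase stood at 5283 TPM and phosphoglycerate kinase at 1686 TPM, against 1586, 713 and 540.4 TPM with merged exons. Both the unshared words and the longest protein-coding transcript replaced the lengths of the 36 genes alone. The total used for scaling came from the longest annotated transcripts of all genes, so a shorter length raised a level but not that total. The change of total by itself lowered levels. Slc16a1, with 4426 bases by either length, stood at 0.791 times its level with merged exons. Of the 36 levels, 12 moved by over 1.5 times with the longest protein-coding transcript as length, all upwards. Those of Pgls, Rpia, Gapdh, Pgd and Eno1 moved by 2.81, 2.32, 2.30, 2.30 and 2.10 times in that order, and those of Aldoa, Pfkp, Gpi1, Pfkfb1, Pkm, Tkt and Hk1 by 1.92 to 1.58 times. The values with unshared words take every shared word as uncounted, which read pairs that span shared and unshared sequence need not obey, so they show how far the levels could move and are no measurement. Lactate dehydrogenase and pyruvate kinase followed GAPDH by this length, at 6343 and 5800 TPM.

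**Figure D4:**
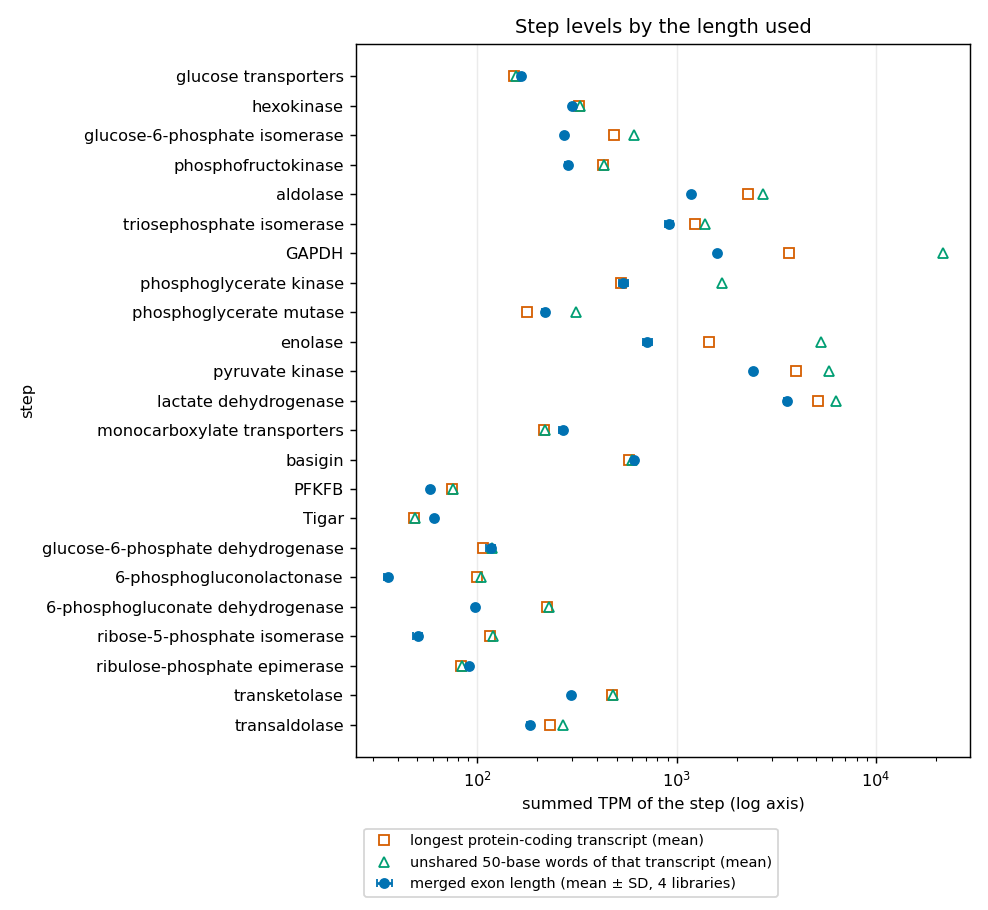
Summed TPM (log axis) of each of 23 steps, from glucose transport to transaldolase, as the mean ± SD of 4 libraries with merged exon lengths (filled circles) and as means with the longest protein-coding transcript (open squares) or its unshared 50-base words (open triangles). GAPDH, enolase and phosphoglycerate kinase move farthest with the unshared words, and 6-phosphogluconolactonase moves from 35.5 to 99.7 TPM with the transcript length.

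Variation between libraries was tested gene by gene. A one-sided test of variation, which sets the negative binomial deviance of the 4 libraries against edgeR's dispersion trend and adjusts by Benjamini-Hochberg over 12849 genes, called 0 of the 35 tested, where it called 0.374% of all genes, so a count of 0 is near the background. Hk3 was under the minimum of a mean of 10 counts, and it had the largest CV of the 36, 79.1%, followed by Aldoc at 50.6%. At an unadjusted p under 0.05 the test gave 1, Aldoc, against 633 (4.93%) of all genes. The edgeR-based adjusted p = 0.883 left Aldoc uncalled. With a common dispersion in place of the trend, Aldoc was called (edgeR adjusted p = 0.0305). The median CV was 3.40% for the 30 genes of at least 10 TPM and 4.29% for all 7800 protein-coding genes of at least 10 TPM, though the 30 had a median level of 156 TPM and the 7800 of 47.4 TPM, and CV falls with level.

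Among the genes above 1 TPM, Pfkfb2, Pfkfb1, Slc16a3 and Eno3 had the largest CVs, at 12.3%, 12.1%, 11.9% and 11.0%. Replicate 1 was the highest library for 11 of the 36 genes, replicate 2 for 12, replicate 3 for 6 and replicate 4 for 7.

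**Figure D5:**
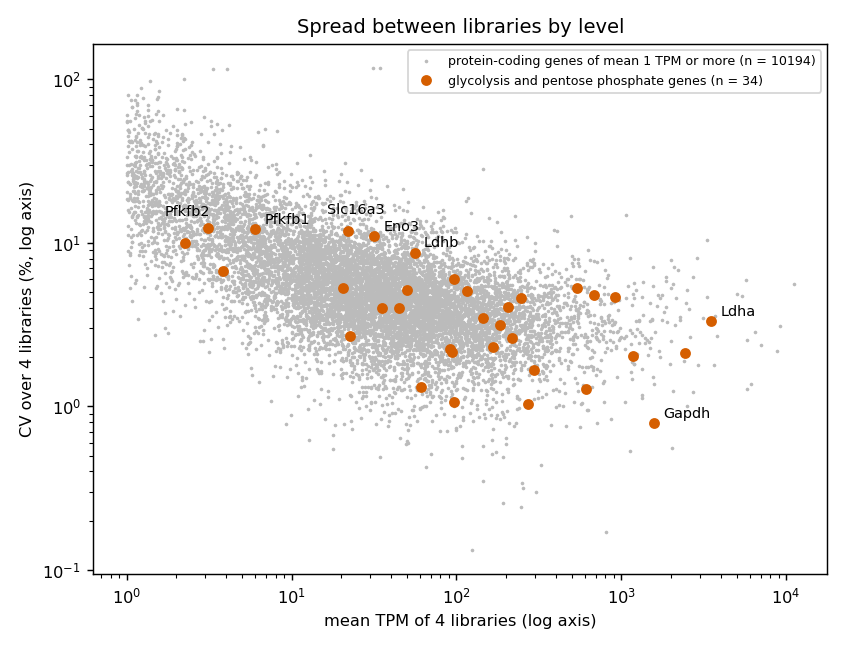
Coefficient of variation over 4 libraries (%, log axis) against mean TPM (log axis) for 10194 protein-coding genes of at least 1 TPM (grey) and for the 34 pathway genes at or above 1 TPM (orange), with 7 of them named. Pathway genes lie within the cloud of genes of like level, with Gapdh near its lower edge at 0.786%.

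Other isozymes and related genes of these steps were mostly below 1 TPM: of 20 listed, 7 lay above and 13 below by edgeR's test. Among all protein-coding genes tested, 45.9% lay above and 51.5% below, which is the background for the lists that follow too. Those above were Emb, the gene of embigin, another chaperone of monocarboxylate transporters, at 366 ± 12.2 TPM (SD, n = 4), Adpgk, the ADP-dependent glucokinase, at 34.0 ± 2.00 TPM, Bpgm, bisphosphoglycerate mutase, at 25.5 ± 1.16 TPM, the transporter genes Slc2a6, Slc2a9 and Slc2a8 at 6.29 ± 0.381 TPM, 3.69 ± 0.782 TPM and 3.25 ± 0.523 TPM, and Ldhd, the D-lactate dehydrogenase, at 1.54 ± 0.257 TPM. Emb exceeded Slc16a1 in all 4 libraries. Gapdhs, Pgk2, Pgam2, Pklr, Ldhc and Slc16a8, forms known from liver, testis, muscle or retina, had no count in any library. Their limits, the TPM that 3 counts in all would give, run from 0.0216 TPM for Pklr to 0.0832 TPM for Pgam2.

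On the side of glucose-6-phosphate and gluconeogenesis, 6 of 11 genes lay above 1 TPM and 5 below by edgeR's test. The phosphatase genes Pgp and Minpp1 stood at 152 ± 7.18 TPM and 105 ± 3.38 TPM (SD, n = 4), the phosphoglucomutase genes Pgm1 and Pgm2 at 83.8 ± 5.03 TPM and 41.7 ± 0.509 TPM, G6pc3, the widely expressed glucose-6-phosphatase, at 45.5 ± 1.48 TPM and Pck2, the mitochondrial PEP carboxykinase, at 6.59 ± 0.790 TPM. The gluconeogenic genes Fbp1, Fbp2, Pck1 and G6pc2 had no count, with limits of 0.0411, 0.0527, 0.0204 and 0.0354 TPM in that order, and G6pc was at 0.0142 ± 0.0284 TPM.

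Of 9 other pentose phosphate genes found, 5 lay above 1 TPM and 4 below by edgeR's test. Prps1 and Prps2, whose enzymes turn ribose-5-phosphate into the nucleotide precursor PRPP, stood at 293 ± 8.51 TPM and 132 ± 2.15 TPM (SD, n = 4), and H6pd, the dehydrogenase of the endoplasmic reticulum, at 15.2 ± 0.878 TPM. The sugar kinase genes Rbks and Shpk stood at 12.3 ± 2.44 TPM and 5.01 ± 0.559 TPM. Tktl1, Tktl2 and Prps1l1 had no count, with limits of 0.0283, 0.0126 and 0.0417 TPM in that order, and G6pd2, a copy of G6pdx, was at 0.0271 ± 0.0351 TPM.

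Regulators of glucose uptake and glycolysis lay above 1 TPM in 7 of 9 cases and below in 2, by edgeR's test. Myc and Hif1a, transcription factors known to drive glycolytic genes in activated T cells and in Th17 cells, stood at 753 ± 26.1 TPM and 295 ± 12.4 TPM (SD, n = 4). Txnip, an arrestin that limits glucose uptake, stood at 138 ± 8.96 TPM, and its relative Arrdc4 at 2.45 ± 1.34 TPM. The glucose-sensing factor gene Mlxip (MondoA) and its partner Mlx stood at 29.7 ± 1.19 TPM and 116 ± 3.73 TPM, while Mlxipl, the related factor of liver, was at 0.0171 ± 0.0199 TPM. Slc37a4, the glucose-6-phosphate transporter of the endoplasmic reticulum, stood at 19.7 ± 0.934 TPM, and Gckr, the liver regulator of glucokinase, had no count, with a limit of 0.0161 TPM.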

How the data were processed

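For each of 4 libraries the authors deposited a table of raw counts, in which read pairs were assigned to the exons of GENCODE M13 genes (mm10) by featureCounts 1.4.6-p4, per the file headers. Pairs were counted by strand, in reverse orientation, only with both ends mapped and only if they mapped to 1 place, per the file headers. No version of the aligner is named there. Each deposited table also gives the merged exon length of a gene. Symbols came from GENCODE M21, which matched 50376 of 50600 identifiers (99.6%).

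TPM was computed over all genes from counts and merged exon lengths. The member genes, the other gene lists, the markers and the 19 pairs were chosen with earlier results of these data known. The text names all 36 members and, in the other lists, the genes above 1 TPM and the lowest, where genes tied at no count are named together. A gene that this rule would name is not reported here.

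Levels were set against 1 TPM with edgeR 4.0.16 (R 4.3.3) over 21764 protein-coding genes. Because the function takes no design of 1 column, the steps of the quasi-likelihood test were run singly. A gene's p there rests partly on a dispersion shared with other genes. Variation was tested on genes whose mean was 10 counts or more, with TMM library sizes. Isozyme differences used log2(TPM + 1) within each library. Pairs of libraries differed by a chi-square per degree of freedom of 4.36 to 11.4, so all 4 were kept as separate libraries. The lowest values were 4.36 for replicates 1 and 2 and 5.87 for replicates 3 and 4, and the other pairs ran from 6.88 to 11.4. Xist and Ddx3y split the libraries the same way, and how much this split adds to the spread was not tested.

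The alternatives tried were limma 3.58.1, DESeq2 1.42.0 (Wald test and size factors), filters, pseudocounts, denominators and lengths, and leaving out each replicate. The longest protein-coding transcript and the unshared 50-base words of M21 transcripts were added after seeing the data. Both lengths were given to the 36 member genes alone, while the total came from the longest annotated transcripts of all genes. Levels with these lengths are thus not full TPM, while shares and ratios among the member genes do not depend on that total. A word counts as shared where an annotated gene elsewhere in the genome holds it. Reads were not counted by molecular identifier and need not be independent, so limits cover counting error only.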

Additional observations from a re-analysis of the deposited data

Results flagged for a closer look

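The 4 libraries were screened for a library that stands apart from the other 3, in 63 quantities: each gene's TPM, each isozyme difference and the summed TPM of steps with several genes. The measure is the gap between the outlying library and its nearest neighbour, as a share of the whole range, against Dixon's 95% critical value for 4 values. Chance flags about 1 in 20 groups, and 7 of the 63 passed. The quantities overlap, since sums and differences repeat the genes they are made of.

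Replicate 1 stood apart in 4 of the 7. Its Slc2a3 level was higher than in the other libraries with a gap of 0.854 of the range, and the summed glucose transporters were higher with a gap of 0.846. The summed monocarboxylate transporters were higher in replicate 1 with a gap of 0.926, and Ldha minus Ldhb was larger there with a gap of 0.894. Replicate 3 stood apart for G6pdx, which was lower with a gap of 0.981 because the other 3 libraries lay within 1 TPM of each other, and for Rpe, which was higher with a gap of 0.844. Pfkfb1 was higher in replicate 4, with a gap of 0.904. None of these genes was called by the variation test, and the cause of each was not tested. Of the 7, G6pdx and Pfkfb1 are X-linked, and their outlying libraries are among the 2 with high Xist (replicates 3 and 4), while the other library of that pair did not stand apart with it. The part of this split in these values was not tested.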

How the results depend on the processing

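In all alternatives run, 34 genes stayed above the level tested, except 33 against 2 TPM. The count below 1 TPM was 2, and 1 with DESeq2, with limma, with a mean of at least 10 counts required and against a level of 0.5 TPM. Leaving out 1 replicate gave 1 to 2 below and 34 to 34 above. Hk3 was under the count filter, and Aldoc lay at 0.692 TPM on the upper side of the 0.5 TPM level, not called (edgeR adjusted p = 0.0687). The count of varying genes was 0, 0 to 0 without any 1 replicate, and 1 with a common dispersion. Of 19 pairs, 18 had 1 sign in every library, and 18 to 19 without 1 replicate, and 17 by CPM, where Pfkfb2 minus Pfkfb1 lost its sign in 1 library. Pfkfb4 minus Pfkfb2 was -0.24 by CPM. The median over 8 families of the leading isozyme's share was 89.7%, 88.5% with the longest annotated transcript, 87.0% by CPM, 85.4% with the longest protein-coding transcript and 85.4% with its unshared words, and 89.5% to 89.97% without 1 replicate. The median step level was 275 TPM, 324.7 TPM with the longest annotated or protein-coding transcript, 328 TPM with unshared words, 290.4 TPM with protein-coding genes as denominator, and 272 to 277 TPM without 1 replicate. No groups were compared, so no pairing between groups arose. The isozyme differences were paired within each library.

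Depth limits Hk3 and Aldoc, with at most 13 and 38 counts in a library. Lengths limit the ratios of Hk2 to Hk1, Slc2a1 to Slc2a3 and Pfkl to Pfkp, and other ratios too. With the longest protein-coding transcripts in place of merged exons, Pfkp to Pfkm went from 4.24 to 9.37. Pfkl to Pfkm went from 7.35 to 12.8 and Eno1 to Eno3 from 21.4 to 51.2. Lengths also limit 12 of the 36 levels, which moved by over 1.5 times, and shared words limit Gapdh, Eno1, Pgk1, Pgam1, Pkm and Ldhb. Which length fits these cells was not tested.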
